A study of Mus musculus with 8 samples.

Results

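Foxp3 and the 5 Ikaros-family genes (Ikzf1, Ikzf2, Ikzf3, Ikzf4 and Ikzf5) were examined in effector Treg (eTreg) cells from spleens and tumors. The members were chosen by gene symbol, and all 6 were found among the 49212 genes of the raw count files. Foxp3 is the forkhead transcription factor that defines the Treg lineage, and it works in large complexes with other transcription factors and with chromatin regulators. The Ikaros proteins are zinc finger transcription factors that form dimers with each other and recruit chromatin remodelers such as the NuRD complex. Helios (Ikzf2) and Eos (Ikzf4) are abundant in Treg cells, where Eos is known as a corepressor that binds Foxp3, whereas Ikaros (Ikzf1), Aiolos (Ikzf3) and Pegasus (Ikzf5) are found more widely in lymphocytes.

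All mice were C57BL/6 and all carried the FoxP3YFP-Cre allele, from which the Foxp3 locus drives YFP and Cre. Mice labelled WT carried this allele alone, and mice labelled KO were Prdm1fl/flFoxP3YFP-Cre, in which Cre removes the floxed part of Prdm1 in cells that express Foxp3. Prdm1 encodes Blimp1, a transcription factor of effector lymphocytes. Every mouse received B16.OVA melanoma cells s.c. and NP-OVA in CFA i.p. on day 0, followed by NP-OVA in IFA on day 7, and tumors were at most 1.5 cm3. CD3+CD4+CD45+CD44+YFP+ cells were sorted from tumors, and from spleens after enrichment with CD4 beads, and RNA was sequenced from 2 libraries for each of the 4 groups. The comparisons ask how the loss of Blimp1 in Treg cells and the tissue of origin bear on transcripts of eTreg cells.

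The libraries held 27834676 to 43903859 reads assigned to genes. The labels do not state that the 2 libraries of a group came from separate animals, so p-values measure only the spread between libraries, which may be technical. The libraries of each group differed by more than sampling noise, with a chi-square per degree of freedom of 353 for WT spleen, 41.2 for KO spleen, 126 for WT tumor and 384 for KO tumor. Levels are given as CPM on TMM-scaled library sizes, or as RPKM, which is CPM divided by the counting length of the gene in kb, so that genes can be compared with each other. A gene was called where the adjusted p of edgeR's quasi-likelihood test was under 0.05 and the absolute log2 fold change was over 1, and each fit covered all genes kept by the expression filter. All 6 members passed this filter in every comparison. An exact permutation test of 2 libraries against 2 cannot go below p = 0.333, so levels and ratios of a gene are given per library with no such test.

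Prdm1 and the genes of the sort gate were read first, as a check of the labels. Prdm1 was at 90.7 and 75.1 CPM in the tumor libraries labelled KO and at 108 and 192 CPM in those labelled WT. In spleen it was at 40.7 and 53.4 CPM in libraries labelled KO and at 54.1 and 21.0 CPM in those labelled WT. Prdm1 was thus lower in both KO than in both WT tumor libraries, as 19.4% of all genes tested were, whereas the splenic genotypes overlapped. The count covers the whole gene and not the floxed part alone, so these levels do not settle the labels. Cd4, the coreceptor on which all cells were gated, was at 148 and 66.2 CPM in KO tumor libraries, against 807 and 1086 CPM in WT tumor and 384 to 1009 CPM in the splenic libraries. Cd8a was at 217 and 1214 CPM in KO tumor, 71.8 and 9.69 CPM in WT tumor and 2.33 to 5.96 CPM in spleen. The KO tumor libraries therefore stood apart from the other libraries with less Cd4, a gene of the gate, and more Cd8a, a gene outside it. Of the other gate genes, Cd3d, Cd3e, Cd3g and Cd44 overlapped between the tumor genotypes. KO tumor replicate 1 was nonetheless the lowest of all libraries in Cd3d (168 CPM), Cd3e (316 CPM) and Cd3g (300 CPM). Replicate 2 was at 732, 1023 and 1223 CPM for these genes. Ptprc, which encodes CD45, was at 1321 and 1709 CPM in KO tumor, within the range of 1045 to 2010 CPM over the other libraries.

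Foxp3 lies on chromosome X of GRCm38 from 7579676 to 7595243, on the plus strand. Its level was 17.5 and 14.6 RPKM in WT spleen, 10.8 and 14.1 RPKM in KO spleen, 6.39 and 15.2 RPKM in WT tumor, and 2.56 and 0.750 RPKM in KO tumor. Both KO tumor libraries were below the other 6 libraries, and the WT tumor libraries differed more from each other than the splenic genotypes did on average. In KO over WT tumor the log2 fold change was -2.71 (standard error, SE, 0.76, edgeR adjusted p = 0.339), which did not pass the threshold, and with 1 library left out it ran from -3.84 to -1.96. DESeq2's Wald test called Foxp3 from these 4 libraries, with an adjusted p of 0.0113. The lowest library rested on 80 counts, against 322 in the other KO tumor library and 709 to 2326 elsewhere. In a bulk sample, fewer Foxp3-expressing cells and less Foxp3 RNA per cell cannot be told apart.

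In spleen, both KO libraries were below both WT libraries, with a log2 fold change of -0.37 (SE 0.34, edgeR adjusted p = 0.878). With 1 library left out this value ran from -0.57 to -0.16. The gap between the nearest splenic libraries, 14.1 against 14.6 RPKM, was smaller than the spread within either genotype. Between tissues, Foxp3 in WT libraries overlapped (log2 fold change -0.57, SE 0.49, edgeR adjusted p = 0.562, from -1.29 to -0.061 with 1 library left out). In KO libraries it was at -2.88 in tumor over spleen (SE 0.67), and the adjusted p of 0.0743 from edgeR's test missed the threshold. The adjusted p from edgeR's test was 0.00049 without KO tumor replicate 1 (log2 fold change -4.06) and 0.00314 without replicate 2 (-2.24), in fits that called 3549 and 4958 genes. It was 0.198 without KO spleen replicate 1 (-3.06) and 0.221 without replicate 2 (-2.66). Fitted over all 8 libraries, edgeR's test called Foxp3 with an adjusted p of 0.0275. Of the 3989 exon bases of Foxp3, 14.8% are shared with Ccdc22 and 9.35% with Gm36995 on the opposite strand, and 6.69% with Ppp1r3fos on the same strand. Ccdc22 had 4 to 29 counts per library and Gm36995 had 1 to 9. Ppp1r3fos was also lowest in KO tumor, with 34 and 10 counts against 123 to 795 in the other libraries. Whether counting used strand is not stated, so reads in the shared bases cannot be assigned to either gene.

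Ikzf2, which encodes Helios, lies on chromosome 1 from 69531214 to 69687245 on the minus strand. It was at 40.3 and 58.9 RPKM in WT spleen, 24.0 and 28.8 RPKM in KO spleen, 25.5 and 44.5 RPKM in WT tumor, and 5.51 and 3.81 RPKM in KO tumor. KO libraries were below WT libraries in both tissues without overlap, and the KO tumor libraries were again the lowest of all. The log2 fold change of KO over WT was -2.91 in tumor (SE 0.43, edgeR adjusted p = 0.177), a level 7.53-fold lower, and DESeq2's Wald test gave an adjusted p of 6.29e-06. In spleen it was -0.92 (SE 0.37, edgeR adjusted p = 0.878). Without WT spleen replicate 1, where a group of 1 library is assumed to vary like the other, the splenic value was -1.10 with an adjusted p of 0.00228 from edgeR's test, in a fit that called 3972 of 18008 genes. Without WT spleen replicate 2 it was -0.61 (edgeR adjusted p = 0.449), and without a KO spleen library it was -0.76 or -1.04 and not called.

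Between tissues, Ikzf2 in WT libraries overlapped, with a log2 fold change of -0.51 (SE 0.49, edgeR adjusted p = 0.609, from -0.92 to -0.14 with 1 library left out). In KO libraries Ikzf2 fell from spleen to tumor, with a log2 fold change of -2.48 (SE 0.30, edgeR adjusted p = 0.0485). This call was lost without KO spleen replicate 1 (edgeR adjusted p = 0.154, log2 fold change -2.59) and without KO spleen replicate 2 (adjusted p = 0.154, log2 fold change -2.32). In either case edgeR's test called 0 genes, with 2688 and 2712 genes at an unadjusted p under 0.05.

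Ikzf4, which encodes Eos, lies on chromosome 10 from 128630843 to 128645991 on the minus strand. Its level was 24.6 and 15.7 RPKM in WT spleen, 20.3 and 22.0 RPKM in KO spleen, 20.4 and 25.9 RPKM in WT tumor, and 3.06 and 2.63 RPKM in KO tumor. The 6 libraries of the first 3 groups overlapped, and only KO tumor lay apart from them. The log2 fold change of KO over WT in tumor was -3.03 (SE 0.31, edgeR adjusted p = 0.177), a level 8.15-fold lower, and DESeq2's Wald test gave an adjusted p of 1.13e-08. By p-value Ikzf4 ranked 7 among the 15935 genes of this fit, and Ikzf2 ranked 75.

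In spleen Ikzf4 had a log2 fold change of 0.06 (SE 0.36, edgeR adjusted p = 0.965), and in WT tumor over spleen 0.20 (SE 0.44, adjusted p = 0.844). In KO libraries it fell from spleen to tumor, with a log2 fold change of -2.87 (SE 0.23, edgeR adjusted p = 0.0366). Without KO spleen replicate 1 or replicate 2 the log2 fold change was -2.91 and -2.79, and the adjusted p from edgeR's test was 0.130 and 0.114.

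Ikzf1, which encodes Ikaros, lies on chromosome 11 from 11685003 to 11772926 on the plus strand. It was at 21.5 and 22.3 RPKM in WT spleen, 25.8 and 23.4 RPKM in KO spleen, 10.7 and 13.9 RPKM in WT tumor, and 17.8 and 30.5 RPKM in KO tumor. WT tumor was the lowest group, and both KO tumor libraries were above both WT tumor libraries, opposite to Foxp3, Ikzf2 and Ikzf4. The log2 fold change of KO over WT in tumor was 0.97 (SE 0.37, edgeR adjusted p = 0.493, from 0.51 to 1.31 with 1 library left out), and that of WT tumor over spleen was -0.83 (SE 0.42, adjusted p = 0.306). In KO libraries the tissues overlapped, with a log2 fold change of -0.02 (SE 0.30, edgeR adjusted p = 0.980). In spleen the genotypes differed by 0.16 (SE 0.32, edgeR adjusted p = 0.911), with both KO libraries above both WT libraries.

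Ikzf3, which encodes Aiolos, lies on chromosome 11 from 98464902 to 98546031 on the minus strand. Its level was 15.3 and 8.54 RPKM in WT spleen, 20.03 and 22.2 RPKM in KO spleen, 17.8 and 26.8 RPKM in WT tumor, and 6.41 and 19.5 RPKM in KO tumor. Both KO libraries were above both WT libraries in spleen, and the genotypes overlapped in tumor, where the KO libraries differed 3-fold from each other. The tissues were ordered in opposite directions: tumor lay above spleen in WT libraries and below it in KO libraries, without overlap in either. The log2 fold change was 0.90 for WT tumor over spleen (SE 0.48, edgeR adjusted p = 0.321, from 0.58 to 1.40 with 1 library left out). For KO tumor over spleen it was -0.71 (SE 0.54, edgeR adjusted p = 0.429).

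For KO over WT, the log2 fold change of Ikzf3 was 0.82 in spleen (SE 0.39, edgeR adjusted p = 0.878) and -0.78 in tumor (SE 0.58, adjusted p = 0.780). The tumor value was -0.19 without KO tumor replicate 1 and -1.82 without replicate 2, and neither was called. Leaving out WT spleen replicate 1 moved the splenic value to 1.37 (edgeR adjusted p = 0.00145), in a fit that called 3972 of 18008 genes, and without replicate 2 it was 0.47 (adjusted p = 0.734). Without a KO spleen library it was 0.92 or 0.75 and not called. Leaving out KO tumor replicate 2 moved the value for KO tumor over spleen to -1.68 (edgeR adjusted p = 0.00229), in a fit that called 4958 of 18484 genes, and without replicate 1 it was -0.12 (adjusted p = 0.617).

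Ikzf5, which encodes Pegasus, lies on chromosome 7 from 131388652 to 131410521 on the minus strand. It was the lowest member in every group by mean, at 0.816 and 1.51 RPKM in WT spleen, 0.864 and 0.851 RPKM in KO spleen, 0.791 and 1.08 RPKM in WT tumor, and 0.916 and 0.824 RPKM in KO tumor. All 4 groups overlapped, and the log2 fold changes ran from -0.45 in KO over WT spleen (SE 0.48) to 0.04 in KO tumor over spleen (SE 0.37). These values rested on 126 to 242 counts per library. Ikzf5 shares 81.3% of its exon bases with Pstk, which runs on the opposite strand and had 357 to 1322 counts per library. Its level is therefore uncertain.

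**Figure D1:**
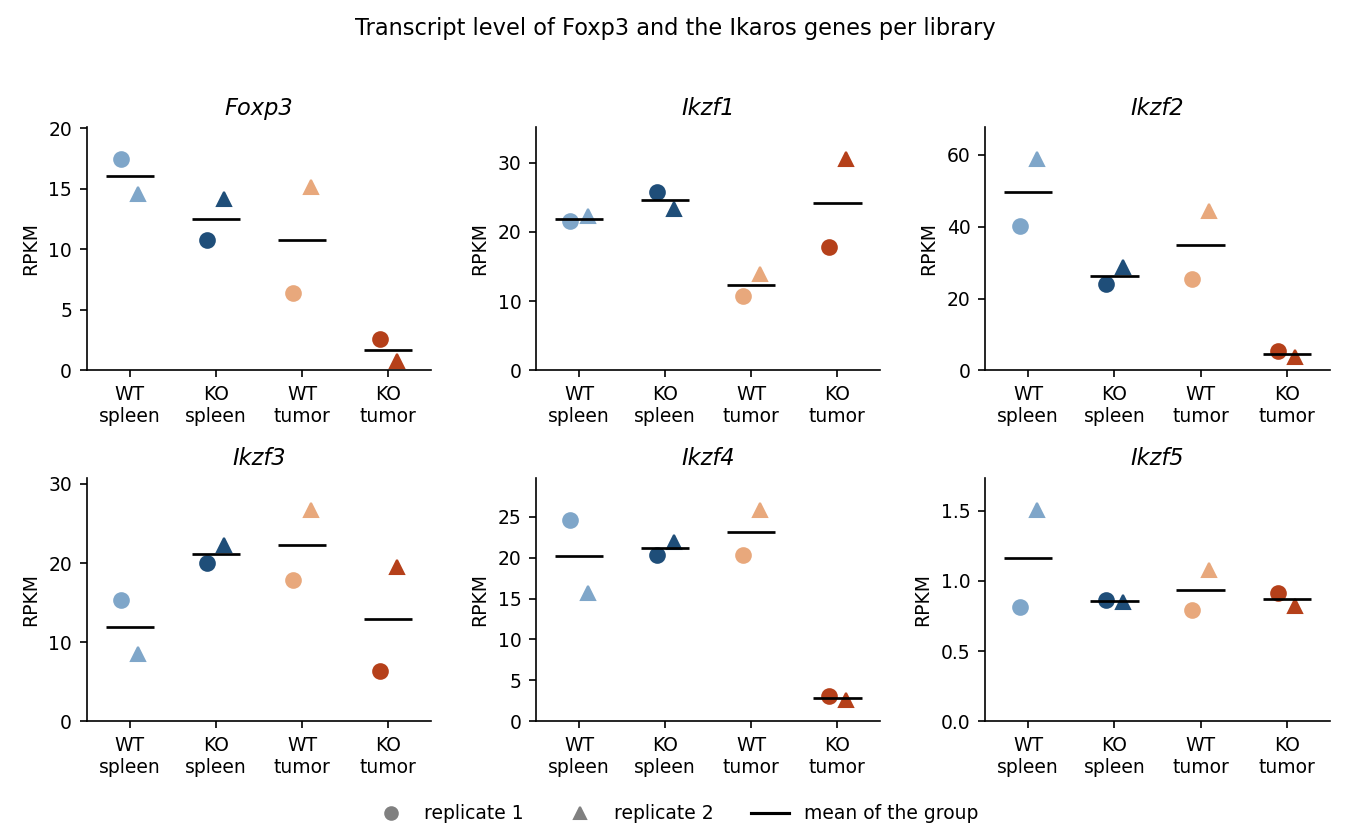
Level of each member in RPKM (vertical axes, starting at 0) in the 2 libraries of each group, with circles for replicate 1, triangles for replicate 2 and a line at the mean of the group. The KO tumor libraries lie lowest for Foxp3 (2.56 and 0.750), Ikzf2 (5.51 and 3.81) and Ikzf4 (3.06 and 2.63), and above WT tumor for Ikzf1.

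Among the 6 members, Foxp3, Ikzf2 and Ikzf4 had the largest log2 fold changes between the tumor genotypes. Both KO libraries were below both WT libraries for 3 of the 6 members (Foxp3, Ikzf2 and Ikzf4), as for 19.4% of all genes tested, and above them for 1 member (Ikzf1), as for 18.0%. edgeR's test called 0 members, as it called 0 of 15935 genes (0.0%). Fitted over all 8 libraries, edgeR's test called 135 of 17870 genes for this comparison, among them Ikzf2 (adjusted p = 0.0348) and Ikzf4 (adjusted p = 0.0328). With the replicate block it called 728 genes, among them Ikzf2 (adjusted p = 0.0109) and Ikzf4 (adjusted p = 0.00887), and with no filter on low counts 1072 genes, among them Foxp3, Ikzf2 and Ikzf4. At an unadjusted p under 0.05 there were 3 members lower and 1 higher, against 3.53% and 6.34% of all genes. DESeq2's Wald test called 3 members, all lower, against 4.68% of 16264 genes (566 higher and 195 lower). The median log2 fold change of the 6 members was -1.75, and that of all genes tested was 0.04.

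In spleen, 2 members were lower (Foxp3 and Ikzf2) and 2 higher (Ikzf1 and Ikzf3) in both KO libraries than in both WT libraries, which held for 15.7% and 16.4% of all genes. edgeR's test called 0 of 16583 genes (0.0%) and 0 members. Ikzf2 was the 1 member with an unadjusted p under 0.05, a direction and limit that 1.42% of genes met. DESeq2's Wald test called 0.416% of genes and 0 members. The median log2 fold change of the members was -0.15, against -0.02 over all genes.

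In WT libraries, none of the members was called between tumor and spleen by edgeR's test, which called 5.97% of 16427 genes, or by DESeq2's Wald test, which called 9.91%. At an unadjusted p under 0.05 edgeR's test gave 3366 genes and 0 members. Ikzf1 was lower and Ikzf3 higher in both tumor libraries than in both splenic libraries, as were 27.0% and 25.1% of all genes, and the other 4 members overlapped.

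In KO libraries, edgeR's test called 2 members between tumor and spleen, Ikzf2 and Ikzf4. Both were lower in tumor, and over all genes it called 1.35% of 16933 (136 higher and 92 lower). Both calls were lost without either KO spleen library, and with the replicate block Ikzf2 was lost (edgeR adjusted p = 0.0659) and Ikzf4 kept (adjusted p = 0.0466). Both stayed called without either KO tumor library, with no filter on low counts and in the fit over 8 libraries (edgeR adjusted p = 0.0139 for Ikzf2 and 0.00657 for Ikzf4). DESeq2's Wald test called 3 members (Foxp3, Ikzf2 and Ikzf4), all lower, against 19.7% of genes (2536 higher and 1277 lower). For 4 members both tumor libraries were below both splenic libraries, as for 32.9% of genes, and the other 2 members overlapped. The median log2 fold change of the members was -1.59, against 0.01 over all genes. This comparison shares its KO tumor libraries with the comparison of tumor genotypes, so the low values in KO tumor enter both.

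The difference of the genotype effect between tissues was tested over all 8 libraries. For Ikzf4 it was -3.09 on the log2 scale (SE 0.48, edgeR adjusted p = 0.177), and DESeq2's Wald test called it with an adjusted p of 0.00016. Foxp3 was at -2.34 (SE 0.84, edgeR adjusted p = 0.529, from -3.49 to -1.60 with 1 library left out) and Ikzf2 at -1.996 (SE 0.56, adjusted p = 0.386). Ikzf3 was at -1.61 (SE 0.75), Ikzf1 at 0.81 (SE 0.49, from 0.38 to 1.14 with 1 library left out) and Ikzf5 at 0.33 (SE 0.67). edgeR's test called 0 of 17870 genes (0.0%) and 0 members, with 3 members lower at an unadjusted p under 0.05, as 2.75% of genes were. DESeq2's Wald test called 1.85% of genes (210 higher and 97 lower) and 1 member, which was lower. With no filter on low counts, edgeR's test called 752 of 28921 genes, among them Ikzf4 (adjusted p = 8.6e-05), Foxp3 (adjusted p = 0.0117) and Ikzf2 (adjusted p = 0.0314). The calls of edgeR's test for all 3 thus depended on the filter.

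**Figure D2:**
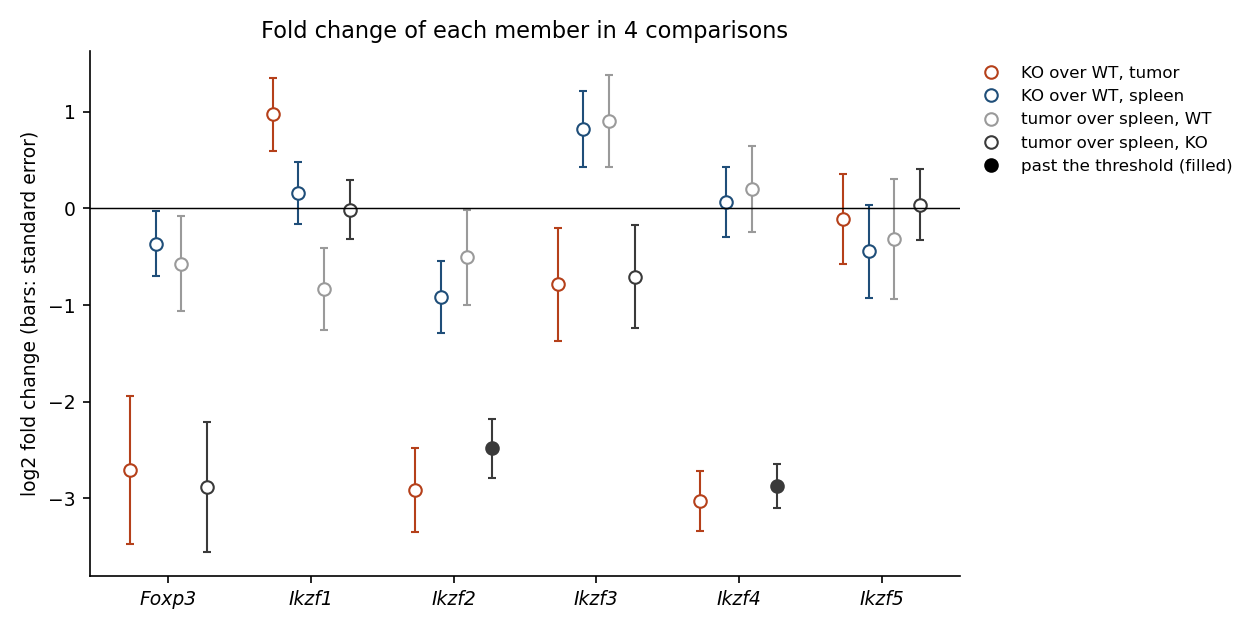
Log2 fold change of each member (vertical axis) in 4 comparisons, from edgeR's quasi-likelihood test, with bars of 1 standard error. Filled points passed the threshold, which were Ikzf2 (-2.48) and Ikzf4 (-2.87) in KO tumor over spleen, and the comparisons share libraries with each other.

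The low Foxp3, Ikzf2 and Ikzf4 of KO tumor libraries came with a low Cd4, so ratios of RPKM were taken within each library, where library scaling cancels. The log2 ratio of Foxp3 to Cd4 was -3.84 and -4.44 in KO tumor, -4.97 and -4.15 in WT tumor, -4.54 and -3.94 in KO spleen, and -3.66 and -2.71 in WT spleen. Relative to Cd4, Foxp3 in KO tumor libraries thus overlapped with WT tumor and with KO spleen, and the highest ratios were those of WT spleen. KO over WT, the mean log2 ratio differed by 0.42 in tumor (from 0.011 to 0.83 with 1 library left out) and by -1.05 in spleen (from -1.53 to -0.58), where the genotypes did not overlap.

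The log2 ratio of Ikzf2 to Cd4 was -2.73 and -2.11 in KO tumor and -2.97 and -2.60 in WT tumor. That of Ikzf4 to Cd4 was -3.58 and -2.64 in KO tumor and -3.30 and -3.38 in WT tumor. Both overlapped between the tumor genotypes, with mean differences of 0.37 (from 0.054 to 0.68 with 1 library left out) and 0.23 (from -0.24 to 0.70). In spleen both were lower in KO than in WT libraries without overlap, by -1.57 for Ikzf2 and by -0.58 for Ikzf4 on the log2 scale. With 1 library left out these ran from -2.46 to -0.69 and from -0.87 to -0.29, and Cd4 was lowest in WT spleen replicate 2 among the splenic libraries (384 CPM).

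Against Cd3e, a subunit of the T cell receptor complex, the KO tumor libraries parted. The log2 ratio of Foxp3 to Cd3e was -4.91 in KO tumor replicate 1 and -8.38 in replicate 2, against -5.15 and -4.53 in WT tumor and -4.88 to -4.34 in spleen. Replicate 1 lay within the range of WT tumor, and replicate 2 lay far below every other library. Replicate 1 had the lowest Cd3e level of all libraries (316 CPM), whereas replicate 2 was at 1023 CPM, and the other libraries were at 928 to 1444 CPM.

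Foxp3, Ikzf2 and Ikzf4 were also set against each other. The log2 ratio of Ikzf2 to Foxp3 was 1.10 and 2.34 in KO tumor and 1.99 and 1.55 in WT tumor, a mean difference of -0.05. That of Ikzf4 to Foxp3 was 0.26 and 1.80 in KO tumor and 1.67 and 0.77 in WT tumor, a mean difference of -0.19. Both overlapped between the tumor genotypes, and in both cases the KO tumor libraries lay on either side of the WT libraries. With 1 library left out the differences ran from -0.67 to 0.56 and from -0.97 to 0.58, so whether these proportions were kept cannot be told. In spleen Ikzf2 to Foxp3 was lower in KO by -0.52 (from -0.93 to -0.12 with 1 library left out) and Ikzf4 to Foxp3 was higher by 0.47 (from 0.28 to 0.66), each without overlap.

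The balance between Ikaros factors differed between genotypes without overlap. Ikzf2 transcripts were 2.38 and 3.20 times those of Ikzf1 in WT tumor and 0.310 and 0.125 times in KO tumor, a difference of -3.81 on the log2 scale. In spleen the ratio was 1.87 and 2.64 in WT and 0.932 and 1.23 in KO libraries, a log2 difference of -1.05. Helios transcripts thus outnumbered Ikaros transcripts per length in every WT library and in 1 of the 4 KO libraries.

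The ratio of Ikzf3 to Ikzf1 was 1.66 and 1.92 in WT tumor, 0.3598 and 0.639 in KO tumor, 0.712 and 0.383 in WT spleen, and 0.777 and 0.952 in KO spleen. It was lower in KO tumor and higher in KO spleen than in WT, by -1.90 and 0.72 on the log2 scale (from -2.31 to -1.48 and from 0.27 to 1.17 with 1 library left out). WT tumor was the group in which Aiolos transcripts exceeded Ikaros transcripts in both libraries. Relative to Ptprc, Ikzf1 was higher in KO than in WT tumor by 1.20 on the log2 scale without overlap, whereas the splenic genotypes overlapped (-0.12, from -0.62 to 0.37 with 1 library left out).

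**Figure D3:**
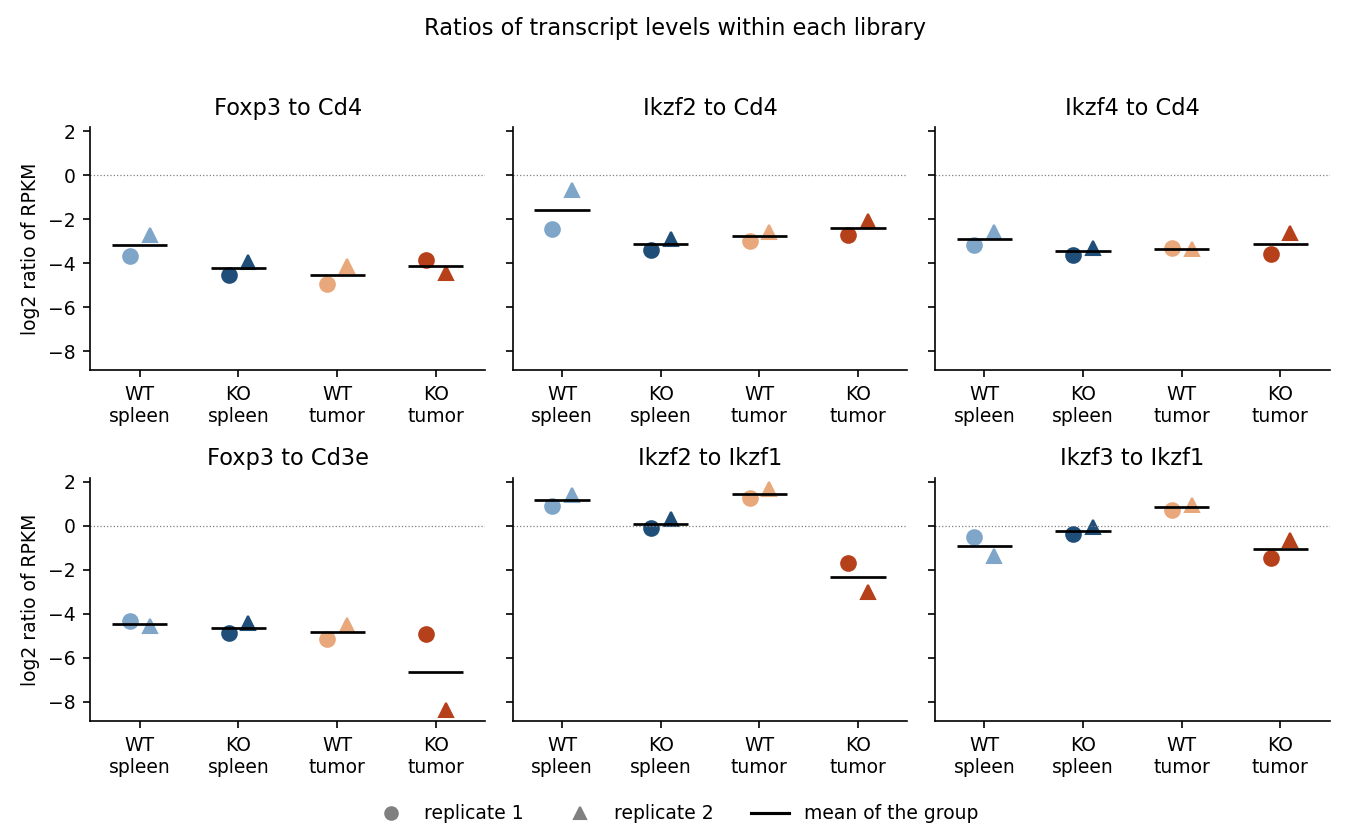
Log2 ratio of RPKM within each library (vertical axes) for 6 pairs of genes, with circles for replicate 1, triangles for replicate 2 and a line at the mean of the group. Ratios to Cd4 in KO tumor overlap with WT tumor, whereas Ikzf2 to Ikzf1 lies at -1.69 and -3.00 in KO tumor and at 1.25 and 1.68 in WT tumor.

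As shares of the summed RPKM of Ikzf1 to Ikzf5, the composition of KO tumor libraries stood furthest from the other groups. Ikzf1 made up 52.8% and 53.3% in KO tumor, 14.3% and 12.4% in WT tumor, 28.3% and 24.0% in KO spleen, and 21.0% and 20.9% in WT spleen. No group overlapped with another in this share, and the KO tumor libraries, which differed in many other transcripts, nearly coincided. Ikzf2 made up 16.4% and 6.65% in KO tumor and 33.9% and 39.7% in WT tumor. In spleen it made up 26.4% and 29.6% in KO and 39.3% and 55.0% in WT, where it was the largest share.

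The share of Ikzf4 was 9.08% and 4.59% in KO tumor and 14.7% to 27.1% in the other 6 libraries. That of Ikzf3 was 19.0% and 34.0% in KO tumor, 23.7% and 23.9% in WT tumor, 22.0% and 22.9% in KO spleen, and 15.0% and 7.98% in WT spleen. The share of Ikzf3 was thus highest in KO tumor replicate 2 and lowest in WT spleen, and the KO tumor libraries lay on either side of WT tumor. The summed RPKM of the 5 genes was 33.7 and 57.3 in KO tumor and 75.2 to 112 in the other libraries, so the larger share of Ikzf1 came with a smaller sum.

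**Figure D4:**
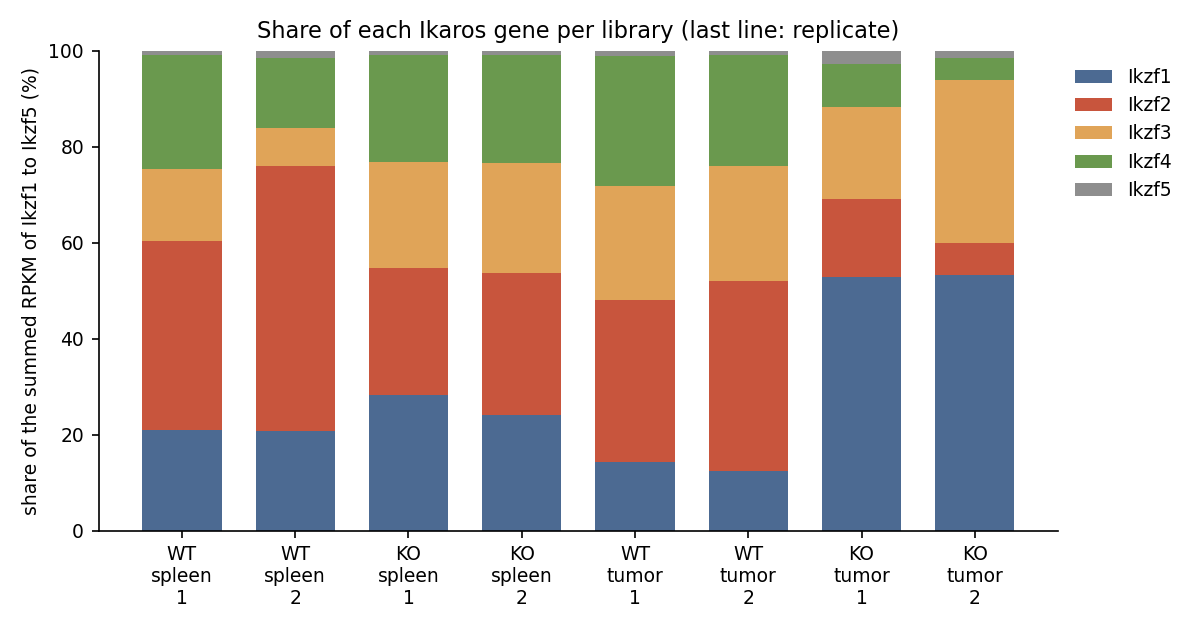
Share of each Ikaros gene in the summed RPKM of Ikzf1 to Ikzf5 (vertical axis, percent), stacked for each of the 8 libraries. Ikzf1 takes 52.8% and 53.3% in KO tumor and 12.4% to 28.3% in the other libraries.

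The order of the members by mean RPKM also differed between groups. Ikzf2 was the most abundant member in WT spleen (49.6 ± 13.1 RPKM, SD, n = 2), WT tumor (35.0 ± 13.4) and KO spleen (26.4 ± 3.37). In WT spleen it lay apart from Ikzf1, the next in order, whereas in KO spleen it overlapped with Ikzf1 (24.6 ± 1.70 RPKM) and in WT tumor with Ikzf4 (23.1 ± 3.89). In KO tumor Ikzf1 (24.2 ± 9.002 RPKM) led and overlapped with Ikzf3 (13.0 ± 9.27), and Ikzf2 (4.66 ± 1.20), Ikzf4 (2.85 ± 0.303) and Foxp3 (1.66 ± 1.28) followed, each apart from the member before it. Foxp3 overlapped there with Ikzf5 (0.870 ± 0.0649 RPKM), a gene that was far below Foxp3 in the other 3 groups. In those groups Foxp3 was at 10.8 to 16.0 RPKM on average and lay in the lower part of the order, below Ikzf2 in every library.

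Transcripts of other cell types were present in the KO tumor libraries, in which Foxp3, Ikzf2 and Ikzf4 were low. The part of these transcripts in the results was not tested. Of the 2 CD8 T cell markers, both had higher counts in KO than in WT tumor in DESeq2's Wald test, and their summed level was 406 and 2222 CPM in KO tumor, 148 and 48.3 CPM in WT tumor and 15.0 to 30.7 CPM in spleen. The 5 NK cell markers, led by Tyrobp, summed to 813 and 261 CPM in KO tumor, 176 and 41.6 CPM in WT tumor, 36.2 and 58.1 CPM in KO spleen and 43.4 and 293 CPM in WT spleen. Of these markers, 4 were higher in KO than in WT tumor at an unadjusted p under 0.05 in edgeR's test, which called 0, and DESeq2's Wald test called 3. Tyrobp, which myeloid cells also express, made up 734 and 126 CPM of the sums in KO tumor and 282 CPM of the highest sum in spleen. The 7 macrophage markers, led by Lyz2, summed to 13880 and 1566 CPM in KO tumor, 2881 and 460 CPM in WT tumor, 287 and 801 CPM in KO spleen and 422 and 2005 CPM in WT spleen. Both KO tumor libraries were thus above the other 6 in CD8 T cell transcripts, replicate 2 the more so, whereas macrophage transcripts were highest in replicate 1, and Foxp3, Ikzf2 and Ikzf4 were low in both.

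The 6 dendritic cell markers, led by Itgax, summed to 209 and 114 CPM in KO tumor, 66.8 and 61.7 CPM in WT tumor and 14.2 to 26.3 CPM in spleen. Itgax alone was at 138 and 55.1 CPM in KO tumor and at 14.3 and 2.16 CPM in WT tumor. Of the 6 dendritic cell markers, 4 had log2 fold changes above 0 in KO over WT tumor and 2 below. The 4 neutrophil markers, led by S100a8, summed to 323 and 176 CPM in KO tumor, 61.8 and 4.56 CPM in WT tumor and 0.749 to 19.3 CPM in spleen. The 6 melanoma cell markers, led by Tyrp1, summed to 3201 and 830 CPM in KO tumor, 2078 and 1140 CPM in WT tumor and 3.69 to 6.74 CPM in spleen, where 2 to 4 of them were at 0. The summed level of the 6 B cell markers was instead highest in spleen, at 1186 to 1566 CPM against 133 to 491 CPM in tumor. Ighm alone made up 1098 to 1517 CPM of these sums in spleen and 123 to 467 CPM in tumor. In KO tumor over spleen, 3 of the 5 B cell markers tested had log2 fold changes above 0 and 2 below. In WT tumor over spleen, all 4 tested were below 0. The 6 red cell markers, led by Hbb-bs, summed to 821 and 775 CPM in KO tumor, 3373 and 82.4 CPM in WT tumor and 88.5 to 1510 CPM in spleen, and the 5 fibroblast markers, led by Col1a1, summed to at most 16.1 CPM.

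Genes of the Foxp3 program were read from lists of the pathway. Of 25 genes that Foxp3 is known to raise in Treg cells, edgeR's test called 0 in KO over WT tumor, 18 were lower and 0 higher at an unadjusted p under 0.05, and DESeq2's Wald test called 15, all lower. Over all genes 3.53% were lower and 6.34% higher at that limit, and DESeq2's Wald test called 4.68% (566 higher and 195 lower). These shares hold beside the counts of each list in this comparison. Their median log2 fold change was -2.46, against 0.04 over all genes. The 4 with the smallest p were Izumo1r, the folate receptor 4 gene (log2 fold change -4.78, SE 0.40), Nt5e, which encodes the ecto-enzyme CD73 (-2.62, SE 0.33), Socs2, a feedback inhibitor of cytokine signaling (-2.69, SE 0.35), and Il2ra, which encodes CD25 (-2.75, SE 0.36). The adjusted p from edgeR's test was 0.177 for each of them. In spleen 0 of the 25 were called by edgeR's test and 2 by DESeq2's Wald test, both lower, at unadjusted p under 0.05 there were 3 lower and 1 higher, and the median was -0.35. Over all genes in spleen, 1.42% were lower at that limit and DESeq2's Wald test called 0.416% (67 higher and 8 lower).

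The same list was read between tissues. Over all genes edgeR's test called 5.97% in WT (674 higher and 307 lower) and 1.35% in KO libraries (136 higher and 92 lower). In WT tumor over spleen edgeR's test called 4 higher, Ctla4 (log2 fold change 3.82), Il10 (2.87), Tnfrsf9 (2.25) and Icos (1.88), and 1 lower, Gpr83 (-4.45), with a median of 0.76, and 8 were higher and 2 lower at an unadjusted p under 0.05. In KO tumor over spleen it called 5, all lower: Izumo1r (-5.62), Gpr83 (-7.63), Nt5e (-3.71), Itgae (-3.87) and Socs2 (-2.01), with a median of -1.03, and 3 were higher and 11 lower at an unadjusted p under 0.05. Over all genes at that limit, 1705 were higher and 1661 lower of 16427 in WT, and 2943 higher and 2313 lower of 16933 in KO libraries. The difference between the tissues' genotype effects had a median of -1.91 over the list, with 0 called by edgeR's test. Of the list, 13 were lower and 0 higher at an unadjusted p under 0.05 in that test, and DESeq2's Wald test called 10, all lower. Over all genes 2.75% were lower at that limit, and DESeq2's Wald test called 1.85% (210 higher and 97 lower).

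Of 4 genes that Foxp3 is known to repress (Il2, Il4, Pde3b and Satb1), all had log2 fold changes above 0 in KO over WT tumor, from 0.31 for Il4 to 3.64 for Pde3b, which encodes a phosphodiesterase of cyclic AMP. edgeR's test called 0, 2 were higher at an unadjusted p under 0.05 (Pde3b and Satb1), and DESeq2's Wald test called 2. Il2 and Il4 were near 1 CPM, with standard errors of 0.68 and 1.10 on the log2 scale. In spleen the 4 genes ran from -1.14 (Pde3b) to 0.21 (Satb1), and neither tool called any, nor was any at an unadjusted p under 0.05. In WT tumor over spleen Il4 fell (-3.72), and in KO tumor over spleen Pde3b rose (5.17).

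Of 27 genes that regulate the Foxp3 locus, edgeR's test called 0 in either comparison of genotypes. In tumor 3 were higher and 2 lower at an unadjusted p under 0.05, DESeq2's Wald test called 2 higher and 1 lower, and the median was 0.17. The 4 with the smallest p were Gata3 (log2 fold change -2.72, SE 0.56), Satb1 (1.55, SE 0.37), Bach2, a repressor of effector genes (2.28, SE 0.59), and Stat5a (-0.998, SE 0.30). In spleen 0 of the 27 were at an unadjusted p under 0.05 and 0 were called by DESeq2's Wald test. From spleen to tumor in WT libraries, Nr4a1 (3.70), Nr4a2 (3.14), Nr4a3 (2.07) and Rel (1.88) rose and Bach2 (-3.60) and Foxo1 (-1.86) fell, and in KO libraries Nr4a2 (4.90) and Nr4a1 (3.70) rose. Nr4a factors and c-Rel are induced by T cell receptor signals and act on Foxp3 enhancers. Foxp3 itself overlapped between the WT tissues, and a link between these genes and Foxp3 was not tested. Tumors were digested with enzymes and spleens were mashed, so tissue and preparation cannot be told apart.

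Of 17 genes of proteins that bind Foxp3, edgeR's test called 0 in KO over WT tumor. Gata3 (-2.72), Tcf7 (2.05, SE 0.45), Rora (-1.27, SE 0.30) and Hif1a (-1.07, SE 0.35) had the smallest p, with 3 lower and 1 higher at an unadjusted p under 0.05, and DESeq2's Wald test called 1 in either direction. From spleen to tumor Tcf7 fell in WT (-4.07) and in KO libraries (-2.47).

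The other Foxp genes and the cofactors of Ikaros proteins were read in the same way. Foxp1, Foxp2 and Foxp4 had log2 fold changes of 0.48, 0.44 and 0.15 in KO over WT tumor, and none was called in any comparison by edgeR's test. Foxp1 was the 1 of them called by DESeq2's Wald test, lower in WT tumor over spleen (-1.50 in edgeR's fit, SE 0.44). Of 17 genes of the NuRD complex and other corepressors, 0 were called between genotypes by edgeR's test, 2 were higher in KO tumor at an unadjusted p under 0.05, and the median was -0.01. Ctbp1, which encodes a corepressor that Ikaros and Eos bind, was at 142 CPM in KO and 21.8 CPM in WT tumor on average (log2 fold change 2.70, SE 0.31, edgeR adjusted p = 0.177), and DESeq2's Wald test called it. It fell from spleen to tumor in WT libraries (-2.09, SE 0.44). Of 5 genes of the cereblon ubiquitin ligase, through which certain drugs degrade Ikaros and Aiolos, none was called or at an unadjusted p under 0.05 in any comparison, and Crbn was at -0.91 in KO over WT tumor (SE 0.42).

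The genes whose profiles were most like those of the members were sought over the 8 libraries, as the smallest root mean square difference of log2 CPM centred on each gene's own mean, among 17870 genes. For Foxp3 these were Cdcp1 (0.21), Gm29114 (0.32), Gm43467 (0.37), Gm10355 (0.37) and Gm16135 (0.38), where the spread of Foxp3 itself was 1.49. All but Cdcp1 were below 4 CPM in every library, so their likeness rests on few counts. Among all genes Ikzf2 ranked 16 in likeness to Foxp3 and Ikzf4 ranked 45.

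For Ikzf2 the nearest were Gm10355 (0.26), Gm29114 (0.27), Gm13012 (0.28), Rasl11a (0.33) and 2010107G23Rik (0.34), of which Gm29114 runs antisense to Ikzf2 and shares 1.24% of its exon bases. For Ikzf4 they were Smim10l2a (0.26), Slc12a8 (0.28), Trav7d-4 (0.29), Rasl11a (0.29) and Trav8-1 (0.32). Ikzf1 was nearest to Max (0.17), Ppp3cb (0.17), Gtf2i (0.18), Txk (0.19) and Luc7l2 (0.20), and Ikzf3 to Ccdc92 (0.18), Gm12026 (0.24), Osbpl3 (0.25), Nlrc3 (0.25) and Tnfsf10 (0.26). Ikzf5 varied little (0.29) and was nearest to Lamtor1 (0.08), 2610001J05Rik (0.09), Fam195b (0.10), Selenot (0.10) and Gm6421 (0.11). Among these nearest genes, Foxp3 and Ikzf2 had Gm10355 and Gm29114 in common and Ikzf2 and Ikzf4 had Rasl11a, whereas Foxp3 and Ikzf4 had none.

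Base composition moved with the tumor comparison of genotypes and was read for the members. The richest stretch of 200 bases in the longest annotated transcript held 64.0% GC for Foxp3, 73.0% for Ikzf1, 56.5% for Ikzf2, 68.5% for Ikzf4 and 60.0% for Ikzf5. Genes in the same ranges of 5 percentage points had median log2 fold changes of at most 0.03 in size in KO over WT tumor. Ikzf3 held a stretch of 80.0% GC, and the 727 genes from 80 to 85% had a median of 1.04, whereas Ikzf3 was at -0.78. The part of base composition in these values was not tested further.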

How the data were processed

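RNA from 8 libraries was sequenced by the authors, who trimmed reads with Trimmomatic 0.36, aligned them to GRCm38 with STAR 2.5.2b and counted unique exon reads per gene with featureCounts of Subread 1.5.2, and deposited the raw counts used here. Whether counting used strand is not stated. A deposited table of normalized counts was not used here.

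Each comparison was fitted on its 4 libraries with edgeR 4.0.16 in R 4.3.3 (TMM scaling, filterByExpr, quasi-likelihood test, Benjamini-Hochberg adjustment over all genes tested), and the interaction on all 8. A standard error is the log2 fold change divided by the square root of F. DESeq2 1.42.0 was an alternative. The tests were tested on simulated data. Depths were 30539772 and 28269666 counts (WT spleen), 43903859 and 35076472 (KO spleen), 29724913 and 30854014 (WT tumor), and 35318365 and 27834676 (KO tumor). RPKM used the counting lengths of the files, log2 ratios added 0.5 counts, and GC stretches used windows of 200 bases moved by 20 along GENCODE M21 transcripts, which matched 96.2% of the genes tested.

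The members, the pathway lists and the lists of cell type markers were chosen with earlier results of these data known. Genes named from a list are those called or, with none called, at most 4 with the smallest p. The 5 nearest profiles are named per member. Alternatives were DESeq2's test and its size factors, other filters on low counts, fits over 8 libraries, the replicate number as a block, leaving out each library, and ratios with no added count. Results for 1 gene of the pathway lists are not reported here, so a list can hold 1 call more than is named.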

Additional observations from a re-analysis of the deposited data

Results flagged for a closer look

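Ikzf3 was singled out because the tissues lay in opposite order in the 2 genotypes: both WT tumor libraries were above both WT splenic libraries, and both KO tumor libraries were below both KO splenic libraries. The difference of the genotype effect between tissues was -1.61 on the log2 scale (standard error 0.75), and its adjusted p of 0.678 from edgeR's test did not pass the threshold. With each library left out in turn it ran from -2.62 to -1.02.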

How the results depend on the processing

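Each group had 2 libraries, so leaving 1 out leaves a group of 1 and the values below are rough. The cause of each difference was not tested. Called genes in KO over WT tumor numbered 0, against 761 with DESeq2, 1072 with no filter on low counts, 728 with the replicate block and 135 over 8 libraries. In KO over WT spleen they numbered 0, against 75 with DESeq2, 167 with no filter, 101 with the replicate block and 21 to 3972 with 1 library left out. In WT tumor over spleen they numbered 981, against 1805 with DESeq2, 1922 with no filter and 213 to 1401 with 1 library left out. In KO tumor over spleen they numbered 228, against 3813 with DESeq2, 3183 with no filter, 1743 over 8 libraries and 0 to 4958 with 1 library left out. For the interaction they numbered 0, against 307 with DESeq2 and 752 with no filter.

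With the replicate block, edgeR's test called Ikzf2 (adjusted p = 0.0109) and Ikzf4 (0.00887) in KO over WT tumor and lost Ikzf2 in KO tumor over spleen (0.0659). The labels do not say that a shared number marks an animal. Deviations of libraries with the same number had correlations across 17870 genes of 0.155 (WT and KO spleen), 0.234 (WT and KO tumor), -0.0243 (WT tissues) and -0.220 (KO tissues).

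With no filter, edgeR's test called Foxp3, Ikzf2 and Ikzf4 in KO over WT tumor and in the interaction, and Foxp3 in KO tumor over spleen (adjusted p = 0.00658). Signs turned only for small log2 fold changes. In KO tumor over spleen, Ikzf1 was at 0.020 with DESeq2 and 0.021 with its size factors in edgeR, and Ikzf5 at -0.015 with a mean of at least 50 counts. With 1 library left out, Ikzf5 ran from -0.32 to 0.12 in KO over WT tumor, -0.76 to 0.072 in KO over WT spleen, -0.67 to 0.24 in WT tumor over spleen, -0.061 to 0.14 in KO tumor over spleen and -0.18 to 0.71 in the interaction. Ikzf4 ran from -0.21 to 0.48 in KO over WT spleen and -0.043 to 0.57 in WT tumor over spleen, and Ikzf1 from -0.42 to 0.31 in KO tumor over spleen.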
